A study of Homo sapiens with 32 samples.

Results

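ZR-75-1 is a line of human breast cancer cells with estrogen receptor, grown here as xenografts, and the tumors of days 4 and 7 of tamoxifen were compared with those of days 1 and 2. The comparison held 14 of the 16 treated tumors of the series, that is 27 of 32 arrays and 10 mice. They were chosen by their labelled day alone, and one array, labelled Day 4 replicate 4 dyeswap, was left out. The early tumors were 4 of day 1 from 2 mice and 2 of day 2 from 2 mice, and the later tumors were 4 of day 4 from 3 mice and 4 of day 7 from 3 mice. Every mouse, control or treated, carried a pellet of estradiol (E2), and treated mice also received a tamoxifen pellet (2.5 mg released over 60 days). By the study's methods the hosts were female nu/nu mice with a tumor in each flank, so that tumors of 1 mouse are not independent, and all tumors descend from 1 cell line passaged as fragments. RNA of each tumor was hybridized in both dye orientations to a 2-color cDNA array against a single pool made from xenografts that had E2 alone, taken on days 0, 1, 2 and 4. Each value below is the log2 ratio of tumor to pool, 1 mean per tumor, so that 0 is the level of the pool and the pool itself drops out of the difference between later and early tumors. No E2-only tumor was matched to a treated tumor by day, and the pool held none of day 7. Time under tamoxifen and time of growth under E2 therefore cannot be told apart in this difference. The question asked was which genes stood nearer to the pool at the later days and which had moved farther from it.

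Tamoxifen competes with E2 for the estrogen receptor. In breast cancer cells that depend on estrogen, the receptor drives progression through the cell cycle by way of cyclins and the E2F and MYB family factors, and it also acts directly on genes such as TFF1, PDZK1 and IGFBP4. Blocking it is known to lower both groups, which makes it possible to ask whether they keep the same course over time. In bulk tumors, fewer cells of a kind and less RNA per cell cannot be told apart.

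The array left out carried the label of the tumor of day 4 replicate 3, but its channel ratios had their highest correlation, r = 0.880, with those of day 4 replicate 2 in forward orientation, and turned by its own orientation it correlated with the forward array of its own tumor at r = -0.287. Day 4 replicate 3 therefore rests on 1 orientation. Signal over background had array medians of 2.29 to 6.59 in the early tumors and of 2.98 to 5.31 in the later ones. Between the orientations of a tumor, r over the named probes ran from 0.536 to 0.799 early and from 0.373 to 0.896 later. Over all probes it ran from -0.057 to 0.285 early and from -0.284 (day 7 replicate 1) to 0.248 later. For the left-out array it was -0.287 over all probes and -0.374 over the named probes. The files do not name the dye of each channel, and every sign below would turn if they follow the labels of the samples, whereas nearer to or farther from the pool does not depend on that sign. All 32 columns of the authors' table of ratios correlated positively with the direction used here. Of the luminal markers, MUC1, CLDN4 and ERBB3 were measured. Their mean log2 ratios were -0.68, 0.78 and 0.28 in the early tumors and -0.44, 0.50 and 0.14 in the later ones. These ratios give the level against the pool and not the strength of the signal. KRT8, KRT18, KRT19, ESR1 and GATA3 were not among the named probes.

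No single probe passed the test of the difference between days 4 and 7 and days 1 and 2, and the counts called against the pool at each time depended on the tumors used. Against the pool, 980 of 9912 probes were called at the early days at an adjusted p under 0.05 (9.89%), 541 lower (5.46%) and 439 higher (4.43%). At the later days 406 were called (4.1%), 232 lower (2.34%) and 174 higher (1.76%), with the pool's own spread left out of both tests. With day 2 as the only early day, 49 probes were called early and 265 later, and with 1 tumor left out the early count ran from 564 to 1107 (lowest without day 1 replicate 2) and the later count from 239 to 509 (lowest without day 7 replicate 2). In the difference itself, later minus early, 0 of 9912 probes were called by limma (0%). At an unadjusted p under 0.05 there were 644 (6.5%), of which 353 stood higher later (3.56%) and 291 lower (2.94%). With a difference of at least 1.5-fold besides, 13 remained (0.131%). The smallest adjusted p was 0.158, for an unnamed probe, and among probes with a gene name it was 0.255, for TYMS.

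In the same direction at both times, 110 probes were called higher and 166 lower. Another 329 higher and 375 lower probes were called at the early days alone, and 64 higher and 66 lower at the later days alone. A call at one time and not at the other is not a difference between them, because 0 probes passed the test of the difference.

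Of the 541 probes lower than the pool at the early days, 503 (93%) had a later mean nearer to 0, and of the 439 higher probes 415 (94.5%) did, against 60.6% of all probes. These shares are not results about return, since the early mean chose the probes and is part of the difference. To separate the choice from the difference, the direction was taken from one early day and the difference from the other, which shares no tumor with it. Of 304 probes called lower than the pool at day 1, 215 (70.7%) stood higher at days 4 and 7 than at day 2, against 49.6% of all probes. The median of those 304 probes was -0.41 at day 1, -0.30 at day 2 and -0.21 at the later days. Of the 259 probes called higher at day 1, 169 (65.3%) stood lower at the later days than at day 2, against 50.4% of all probes, with medians of 0.28 at day 2 and 0.20 later. With the days exchanged, 56 of the 66 probes called lower at day 2 (84.8%) stood higher later than at day 1, against 50.5% of all probes, and 8 of the 14 called higher (57.1%) stood lower, against 49.5%. The later tumors and the pool are common to both versions. Symbols were at hand for 333 probes, which had been chosen on these same arrays. Among these, 59 of the 74 probes lower at day 1 (79.7%) and 37 of the 42 lower at day 2 (88.1%) stood toward the pool, as did 41 of 61 (67.2%) and 4 of 7 (57.1%) on the higher side.

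**Figure D1:**
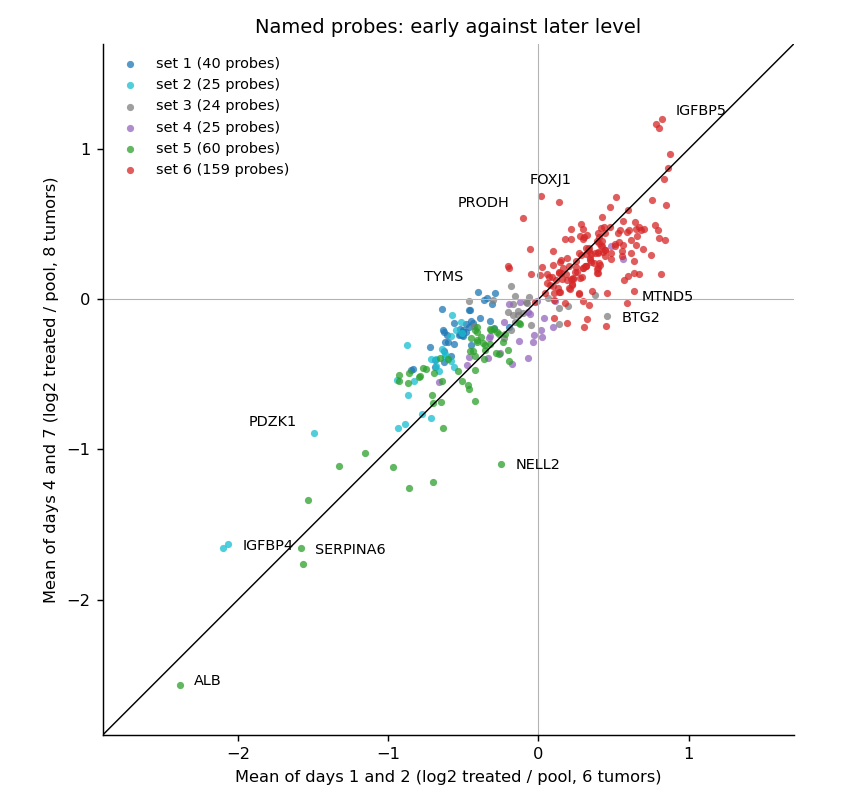
Mean log2 ratio of treated tumor to pool for the 333 named probes, at days 1 and 2 (horizontal, 6 tumors) and at days 4 and 7 (vertical, 8 tumors), colored by the study's 6 sets; the diagonal marks equal levels and the gray lines the level of the pool. Set 1 lies above the diagonal for 40 of 40 probes, and NELL2 (-0.25 early and -1.10 later) and FOXJ1 (0.01 and 0.69) lie far from it on the side away from the pool.

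Set 1 is one of 6 sets into which the study clustered its named probes by their time course. As the sets were made from these arrays, their counts are descriptions. Each of the 40 probes of set 1 stood higher at the later days, against 50.3% of all probes, and 27 did so at an unadjusted p under 0.05. Its median was -0.51 at the early days and -0.21 at the later days. Set 2 had 24 of 25 probes higher later, 14 of them at an unadjusted p under 0.05, with medians of -0.68 and -0.44. In set 5 the levels of both times were alike, with medians of -0.45 and -0.43 and 37 of 60 probes higher later. Set 6, the set above the pool, had medians of 0.34 and 0.28, with 56 of 159 probes higher later. Sets 3 and 4 had medians of -0.13 and -0.07 early and of -0.07 and -0.24 later, and the tumor medians of set 4 ran from -0.58 to 0.24 early and from -0.57 to 0.29 later.

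In single tumors, the median of set 1 was between -0.71 and -0.28 at the early days and between -0.40 and -0.05 at the later days, so that the groups overlapped. For set 2 the early tumors lay between -0.85 and -0.61 and the later ones between -0.57 and -0.33, with no overlap. The single days differed as well. The median of set 1 was -0.41 at day 1 and -0.69 at day 2, and that of set 2 was -0.73 and -0.64.

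**Figure D2:**
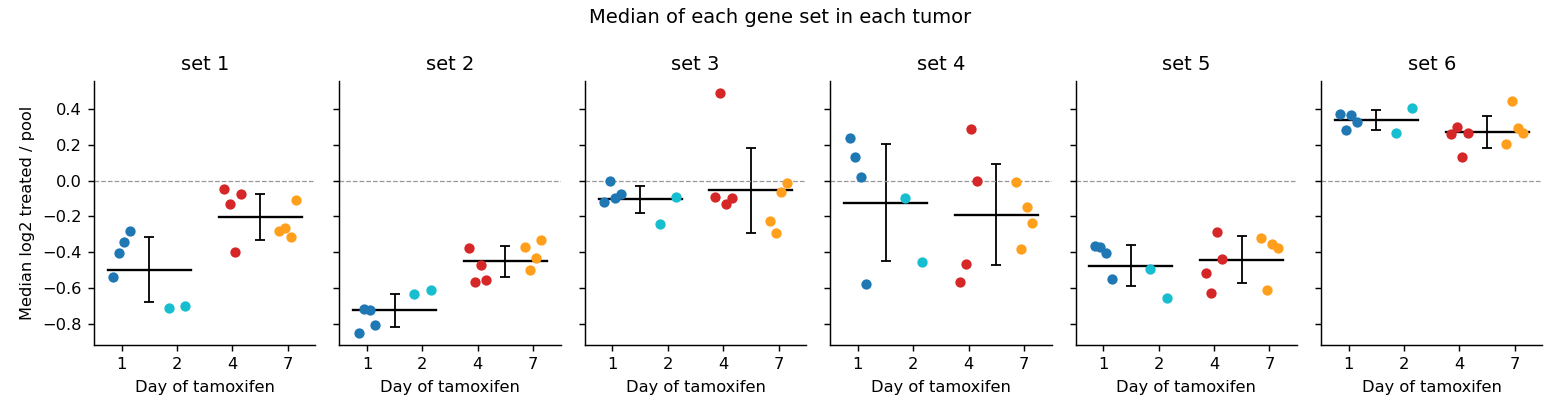
Median log2 ratio of each of the study's 6 sets in each tumor by day of tamoxifen, 1 point per tumor; the horizontal bar is the mean over the early or the later tumors, the whisker 1 SD, and the dashed line the pool. Later tumors of set 2 sit between -0.57 and -0.33, all above the early tumors, whereas the early and later tumors of sets 5 and 6 overlap.

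Genes of DNA replication and nucleotide supply made up one part of the genes that lay toward the pool. Of 42 genes listed, 13 had a named probe. Of these, 12 stood higher later and 9 did so at an unadjusted p under 0.05, against 353 of 9912 probes (3.56%) and 37 of the 252 named genes, which the study had chosen on these arrays. The median of the list was -0.40 at the early days and -0.11 at the later days, compared with medians near 0 over all 252 named genes. The early call was lower for 10 of the 13, and the later call for 1, against 79 and 53 of the 252 named genes and 5.46% and 2.34% of all probes.

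Thymidylate synthase (TYMS), which makes the thymidylate needed for DNA, had the smallest p of the named genes. Its log2 ratios in the early tumors had a lowest value of -0.61, a median of -0.39 and a highest of -0.26, and those in the later tumors a lowest of -0.21, a median of 0.08 and a highest of 0.22. Every later tumor was above every early tumor, which held for 9 of 9912 probes (0.0908%), whereas the reverse held for 4 (0.0404%). The later mean was higher by 0.45 (SE 0.09, 95% interval 0.26 to 0.64), which is 1.36-fold, with an unadjusted p of 9.3e-05 and an adjusted p of 0.255. In a fit of single arrays with a term for the dye the adjusted p was 0.0467 and TYMS was called. That fit had the tumor as its block and not the mouse, so that tumors of 1 mouse counted as independent. In none of the other settings listed at the end was TYMS called (adjusted p from 0.0467 to 0.876 over all). By day, TYMS stood at -0.41, -0.38, 0.15 and -0.05 on days 1, 2, 4 and 7.

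RRM2, the small subunit of ribonucleotide reductase, was between -0.62 and -0.32 in the early tumors (median -0.44) and between -0.31 and 0.24 in the later ones (median -0.09). The groups did not overlap, although the highest early and the lowest later tumor nearly met. The 4 tumors of day 4 were all above the pool and those of day 7 all below it, with means of 0.12 and -0.27. The difference of the means was 0.38 (SE 0.11, adjusted p = 0.615).

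TK1, the thymidine salvage kinase, had a lowest, median and highest value of -0.50, -0.44 and -0.05 early and -0.19, 0.00 and 0.23 later, with 1 group reaching into the other. The later mean was 0.35 higher (SE 0.10, adjusted p = 0.615). CTPS, which makes CTP, went from a mean of -0.51 to -0.15, and GMNN, the licensing inhibitor geminin, from -0.55 to -0.21. By day, CTPS stood at -0.66, -0.24, -0.13 and -0.17 on days 1, 2, 4 and 7, with day 2 near the later days. MCM2 and MCM6, subunits of the replicative helicase, stood at -0.51 and -0.62 early and at -0.22 and -0.37 later. MCM6 was still called lower than the pool at the later days (adjusted p = 0.0031). The probe named UNG2 was on the other side, above the pool at both times with 0.44 and 0.44. This symbol has been used for more than 1 gene, so its place in the list is uncertain.

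Genes of mitosis and the spindle stood higher at the later days as well. Of 49 genes listed, 19 had a named probe, 18 of which stood higher later and 10 at an unadjusted p under 0.05, against 3.56% of all probes and 37 of 252 named genes. The median of the list was -0.47 early and -0.16 later, and 15 of the 19 were called lower early and 5 later, against 79 and 53 of 252 named genes and 5.46% and 2.34% of all probes. NUMA1, a spindle pole protein, was the exception, with means of 0.56 and 0.29.

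BUB1B, a kinase of the spindle checkpoint, had a lowest, median and highest log2 ratio of -0.91, -0.60 and -0.34 in the early tumors and -0.47, -0.17 and 0.08 in the later ones. The groups overlapped. The difference was 0.43 (SE 0.12, adjusted p = 0.615), and by day the means were -0.50, -0.87, -0.19 and -0.21. CDKN3, a phosphatase that acts on cyclin-dependent kinases, had values of -1.02, -0.73 and -0.31 early and of -0.55, -0.33 and -0.09 later, with a difference of 0.40 (SE 0.11, adjusted p = 0.615). Its second probe moved from -0.57 to -0.30.

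AURKA, a kinase of the spindle poles, was between -0.73 and -0.34 early (median -0.52) and between -0.31 and -0.11 later (median -0.26). It was the only gene of the list with no overlap between early and later tumors. The difference of 0.29 (SE 0.09) had an adjusted p of 0.637, and the later mean of -0.24 was still called lower than the pool (adjusted p = 0.0297). STMN1, which destabilizes microtubules, differed by 0.40 (SE 0.12), with means of -0.47 and -0.07. FOXM1, a transcription factor of late cell cycle genes, stood at -0.49 and -0.17. MKI67 and CCNA2, a proliferation marker and a cyclin, stood at -0.30 and -0.52 early and at -0.01 and -0.23 later, with unadjusted p values of 0.067 and 0.051. CKS2, an adaptor of cyclin-dependent kinases, stood at -0.69 and -0.41 and was called lower than the pool at both times.

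**Figure D3:**
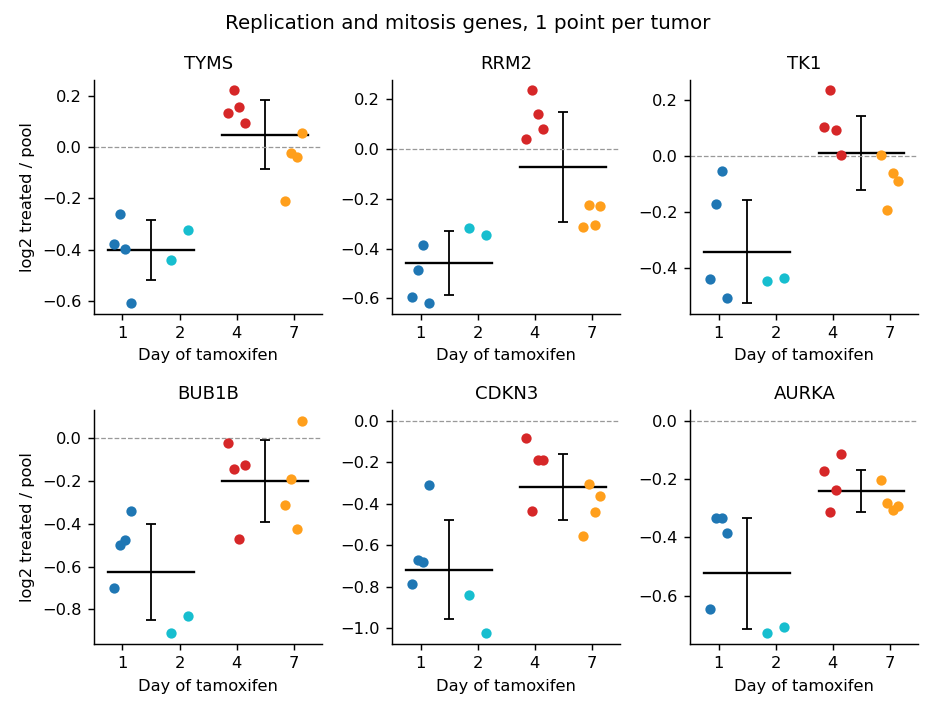
Log2 ratio of tumor to pool for 6 replication and mitosis genes by day of tamoxifen, 1 point per tumor; the horizontal bar is the mean over the early or the later tumors, the whisker 1 SD, and the dashed line the pool. The later tumors of TYMS, RRM2 and AURKA lie above all early tumors, and for RRM2 the tumors of day 7 lie below those of day 4.

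Promoters of late cell cycle genes are known to carry a cell cycle homology region (CHR) next to CCAAT boxes. The RefSeq promoter table (GRCh38.p14) held 187 of the 252 named genes, and the 250 bases before the start were searched on both strands. The letters TTTGAA of the CHR stood in 8 of 16 promoters of the mitosis list (50%), in 0 of 11 of the replication list and in 13.6% of all 27305 promoters. The letters CCAAT stood in 13 of 16 (81.2%), in 2 of 11 (18.2%) and in 33% of all. The promoters of the 4 genes of the mitosis list that held TTTGAA and had the smallest p in the difference are shown, since both lists stood nearer to the pool while their promoters differed in these letters. CHR and CCAAT matches of either strand are in capitals, and no CCAAT match overlaps a CHR match. They run from chr15:40160819-40161068 (BUB1B, plus strand), chr14:54396757-54397006 (CDKN3, plus strand), chr10:56361260-56361509 (ZWINT, minus strand) and chr14:55191586-55191835 (DLG7, now DLGAP5, minus strand).
BUB1B: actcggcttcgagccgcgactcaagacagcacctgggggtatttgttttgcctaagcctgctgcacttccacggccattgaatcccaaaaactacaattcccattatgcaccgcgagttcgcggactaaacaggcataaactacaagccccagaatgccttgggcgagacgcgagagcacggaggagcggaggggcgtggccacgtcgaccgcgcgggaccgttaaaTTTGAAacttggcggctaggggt
CDKN3: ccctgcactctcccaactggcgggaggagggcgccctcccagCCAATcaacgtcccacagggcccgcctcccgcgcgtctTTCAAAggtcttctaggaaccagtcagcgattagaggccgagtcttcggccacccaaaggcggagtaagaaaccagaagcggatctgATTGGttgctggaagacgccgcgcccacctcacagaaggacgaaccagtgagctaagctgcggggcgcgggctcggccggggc
ZWINT: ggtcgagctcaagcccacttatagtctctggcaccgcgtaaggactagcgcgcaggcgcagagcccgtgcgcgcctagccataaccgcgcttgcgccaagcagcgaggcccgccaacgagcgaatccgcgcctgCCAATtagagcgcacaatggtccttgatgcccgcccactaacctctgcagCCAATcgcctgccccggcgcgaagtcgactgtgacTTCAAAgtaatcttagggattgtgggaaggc
DLG7: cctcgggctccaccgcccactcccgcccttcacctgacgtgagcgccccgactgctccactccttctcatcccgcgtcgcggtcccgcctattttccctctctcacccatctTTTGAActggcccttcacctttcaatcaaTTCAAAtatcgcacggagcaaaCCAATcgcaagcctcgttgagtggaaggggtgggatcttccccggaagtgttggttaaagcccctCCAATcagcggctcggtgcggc
In the later tumors these 4 genes stood at means of -0.20, -0.32, -0.15 and -0.16, from -0.63, -0.72, -0.45 and -0.56 early. A match to these letters is a description of the sequence and not a site.

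Outside the lists of replication and of mitosis, THOC4, an mRNA export adaptor, had the second smallest p of the genes higher later. Its lowest, median and highest values were -0.93, -0.59 and -0.18 early and -0.31, -0.09 and 0.02 later, which overlapped. The difference was 0.47 (SE 0.11, adjusted p = 0.613). SFI1, a centrosome protein, was between -0.69 and -0.55 early and between -0.55 and -0.02 later, with a difference of 0.37 (SE 0.10). EBP, an enzyme of cholesterol synthesis, moved from a mean of -0.46 to -0.19, and EGLN2, an oxygen-dependent prolyl hydroxylase, from -0.58 to -0.25. None of these differences passed the adjustment over all probes. For EGLN2 the means were -0.75, -0.27, -0.22 and -0.27 on days 1, 2, 4 and 7, so that day 2 stood near the later days.

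Estrogen-induced genes lay on both sides of their early level. Of 44 listed, 28 were measured, of which 15 stood higher later, with medians of -0.62 early and -0.54 later. At an unadjusted p under 0.05, 5 stood higher and 1 lower, against 37 and 9 of the 252 named genes and 3.56% and 2.94% of all probes. At the early days 16 were called lower than the pool and at the later days 18, against 79 and 53 of 252 and 5.46% and 2.34% of all probes.

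PDZK1, a scaffold protein induced by estrogen, had a lowest, median and highest value of -2.31, -1.59 and -0.87 early and -1.75, -0.96 and -0.24 later, so that the groups overlapped. The later mean was 0.60 higher (SE 0.24, unadjusted p = 0.024, adjusted p = 0.728), and both means were called lower than the pool. With day 2 as the only early day the difference was -0.014. OLFM1 was measured by 5 probes, all higher later by 0.27 to 0.38, and its brightest stood at -0.93 and -0.54. MYBL1, a MYB family factor, stood at -0.83 and -0.55, CITED1, a co-activator of the estrogen receptor, at -0.94 and -0.54, and B4GALT1, a galactosyltransferase, at -0.87 and -0.64. For CITED1 the means of days 1 and 2 were -1.16 and -0.53, and the difference with day 2 as the only early day was -0.0036. MYBL1, CITED1 and B4GALT1 were also called lower than the pool at the later days.

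Other classical estrogen targets were far below the pool at both times. TFF1, a secreted trefoil peptide, had means of -1.33 and -1.11, with a difference of 0.22 and a 95% interval of -0.14 to 0.57. TFF3, its relative, had means of -0.97 and -1.12 and an interval of -0.53 to 0.23. IGFBP4, which binds insulin-like growth factors, was between -2.33 and -1.73 early (median -2.16) and between -3.30 and -0.36 later (median -1.51). The later tumors thus covered the whole early range and more, and the difference was 0.44 (95% interval -0.29 to 1.16), which turned to -0.05 without day 4 replicate 3 and day 7 replicates 1 and 4.

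The group with the lowest levels was that of proteins typical of the liver, of which 5 of 16 were measured and all 5 were called lower than the pool at both times, against 79 early and 53 later of the 252 named genes and 5.46% and 2.34% of all probes. Albumin (ALB) had a lowest, median and highest log2 ratio of -3.98, -2.50 and -0.32 early and -5.14, -2.47 and -0.70 later. The means of -2.39 and -2.57 differed by less than the spread between tumors, with an interval of -1.45 to 1.09. SERPINA6, which carries corticosteroids, had means of -1.58 and -1.66 (interval -0.69 to 0.54), and SERPINA1, a protease inhibitor, -0.86 and -1.26 (interval -0.96 to 0.17). MAT1A, which makes S-adenosylmethionine, stood at -0.71 and -0.64.

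**Figure D4:**
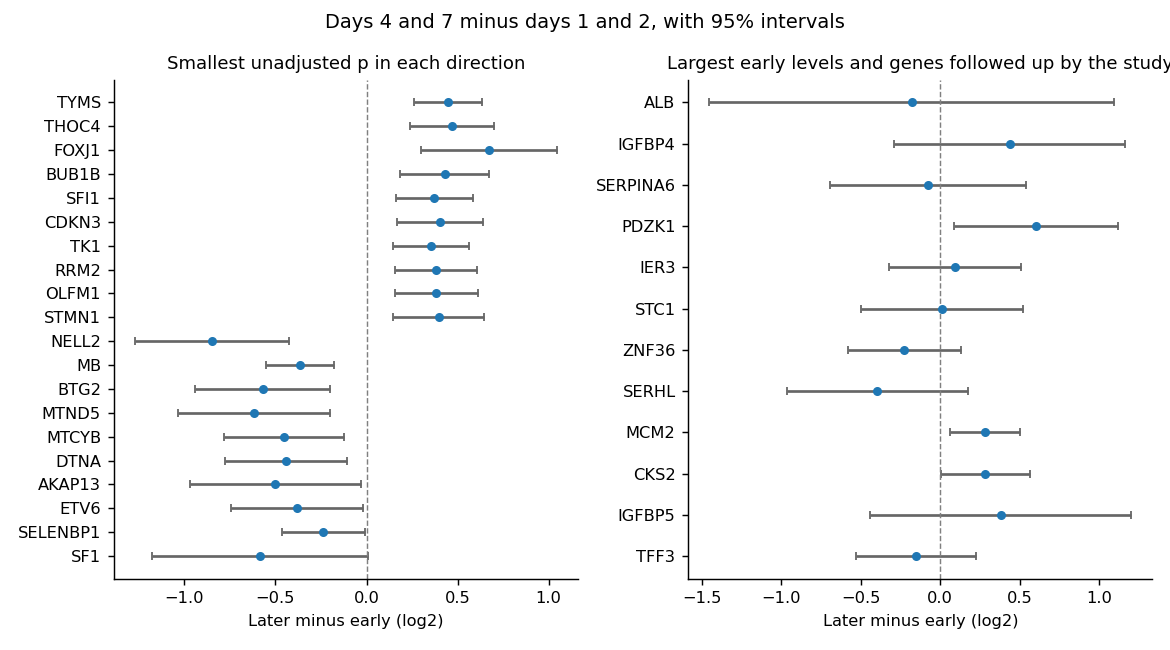
Later minus early mean on the log2 scale with its 95% interval, left for the 10 named genes with the smallest unadjusted p in each direction, right for the early-called genes with the largest levels and the genes the study followed up in cells or tissue. No gene passed the adjustment over all probes, TYMS lies at 0.45, NELL2 lies at -0.85, and the intervals of ALB and IGFBP5 are the widest on the right.

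Other genes stood farther from the pool at the later days. Of the 644 probes with an unadjusted p under 0.05, 479 had a later mean nearer to the pool and 165 one farther from it. Of the 165, 15 were on the side where they already stood early. Over all 9912 probes, 6010 (60.6%) had a nearer later mean and 3902 a farther one. The split of the 644 is not a result about return, since the early mean is part of the difference that chose them. Among the named genes at an unadjusted p under 0.05, by the brightest probe, those farther were NELL2, FOXJ1, PRODH and TFPI2. At the later days alone, 17 named probes above the pool and 6 below it were called.

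NELL2, a secreted protein of the estrogen-induced list, had the smallest p of these 4. In the early tumors its lowest, median and highest log2 ratios were -0.70, -0.20 and 0.32, and in the later tumors -1.56, -1.26 and -0.21. All but 1 later tumor, day 7 replicate 1, lay below every early tumor. The difference was -0.85 (SE 0.20, 95% interval -1.27 to -0.43), with an unadjusted p of 0.00050 and an adjusted p of 0.615. Against the pool, the adjusted p was 0.366 early and 9.9e-05 later. The means were -0.16 and -0.40 on days 1 and 2, -1.13 and -1.08 on days 4 and 7, and the 2 tumors of day 14 stood at -1.96 and -1.82.

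FOXJ1, the regulator of motile cilia, ran in the opposite direction. Its lowest, median and highest values were -0.69, 0.08 and 0.45 early and 0.19, 0.81 and 1.03 later, with an overlap in the middle. The later mean was 0.67 higher, that is 1.59-fold (SE 0.18, adjusted p = 0.615), and its second probe differed by 0.51. On day 14 the tumors stood at 1.78 and 2.96. PRODH, which starts proline breakdown in mitochondria, moved from -0.10 to 0.54, and TFPI2, a protease inhibitor, from -0.05 to 0.33. CLN8, a membrane protein of the endoplasmic reticulum, was called lower than the pool at both times, with means of -0.70 and -1.22 and an unadjusted p of 0.065 for the difference. By contrast, TYMS and BUB1B, which stood nearer to the pool on days 4 and 7, had values of -1.02 and -0.29 and of -1.06 and -0.51 in the tumors of day 14.

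Above the pool, the genes with the largest early calls were IER3, STC1, ZNF36 and SERHL. IER3, an early response gene linked to survival, had means of 0.87 and 0.97, and STC1, a secreted glycoprotein, 0.86 and 0.87. ZNF36 stood at 0.85 and 0.63, and SERHL at 0.80 and 0.41. IER3, STC1 and ZNF36 were called higher than the pool at both times, and SERHL at the early days alone. IGFBP5, another binding protein of insulin-like growth factors, was between -0.07 and 1.95 early (median 0.74) and between 0.43 and 3.41 later (median 0.93). Its means of 0.82 and 1.20 overlapped widely, with an interval of -0.44 to 1.20. ERBB2 stood at 0.70 and 0.47, and of the 14 measured of 26 listed genes of ERBB and growth factor signalling, 0 had an unadjusted p under 0.05.

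**Figure D5:**
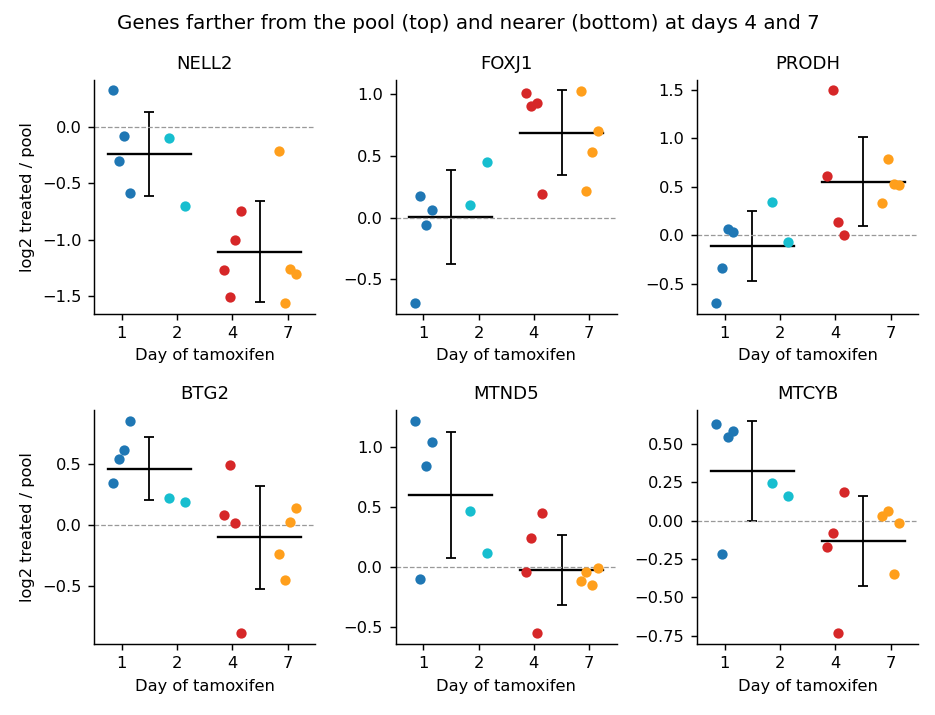
Log2 ratio of tumor to pool for 3 genes that stood farther from the pool at days 4 and 7 (top row) and 3 that stood nearer to it (bottom row), 1 point per tumor; the horizontal bar is the mean over the early or the later tumors, the whisker 1 SD, and the dashed line the pool. Later values of NELL2 reach -1.56 and those of FOXJ1 1.03, whereas BTG2, MTND5 and MTCYB scatter about 0 at the later days.

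On the higher side, genes that stood toward the pool included an antiproliferative gene and mitochondrial transcripts. MB, the oxygen-binding myoglobin, was between 0.53 and 0.86 early and between 0.17 and 0.55 later, so that the groups overlapped at their edges. Its difference of -0.37 (SE 0.09, unadjusted p = 0.00067) had an adjusted p of 0.615, and it was called higher than the pool at both times. BTG2, an antiproliferative early response gene, had a lowest, median and highest value of 0.19, 0.45 and 0.86 early and -0.89, 0.02 and 0.50 later. The groups overlapped, and the difference was -0.57 (SE 0.18, adjusted p = 0.637).

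Of 22 genes of the mitochondrial respiratory chain, 5 were measured, and 3 of them are encoded in mitochondrial DNA. MTND5, a subunit of complex I, was between -0.10 and 1.22 early (median 0.66) and between -0.55 and 0.45 later (median -0.04). Its difference was -0.62 (SE 0.20, adjusted p = 0.637). MTCYB, the cytochrome b of complex III, was measured by 3 probes with differences of -0.63, -0.49 and -0.45, and MTND1 differed by -0.37. The nuclear genes ATP5D and COX6C stood at -1.16 and -0.32 early and at -1.02 and -0.30 later. Across all 3 mitochondrial genes, at least 1 early tumor lay below the pool and at least 1 later tumor above it. At the early days MTND5 was called higher than the pool (adjusted p = 0.018). MTCYB by its brightest probe (adjusted p = 0.100) and MTND1 (adjusted p = 0.157) were not. The day 14 means of MTND5, MTCYB and MTND1 were 0.67, 0.85 and 1.05.

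Among the other genes lower later, DTNA (dystrobrevin), AKAP13 (an anchoring protein of protein kinase A), ETV6 (an ETS family repressor), SELENBP1 (a selenium-binding protein) and SF1 (a splicing factor) had differences between -0.58 and -0.24. For SF1 and ETV6 the later group held 1 tumor, day 4 replicate 2, at 1.46 and 1.05.

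In the remaining lists the counts ran in both directions. Of 20 secretory, luminal and ciliated genes measured, 10 stood higher later and 1 had an unadjusted p under 0.05 in each direction. CLDN4, a tight junction protein, stood at 0.78 and 0.50, and PERP, a desmosome protein, at 0.10 and 0.32. Of 11 hypoxia and glycolysis genes 2 stood higher later, with list medians of -0.06 and -0.10. The immediate early list had 5 measured genes, among them FOS with means of 0.03 and -0.25, and the stress list had 7, with medians of 0.40 and 0.44. Of 9 cholesterol and fatty acid genes, 5 stood higher later. SCARB1, a lipoprotein receptor, RHOB, a small GTPase, CLU, the chaperone clusterin, and S100A10, an annexin partner, had differences of -0.24, 0.04, 0.14 and 0.02.

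Markers of other cell types were few. Of 16 globin and erythroid genes 2 were measured, MB and HBG1, of which MB is a globin but no erythroid marker. The fetal globin HBG1 stood at -0.93 early and -0.50 later, with later tumors between -2.18 and 1.21. Of 21 fibroblast and matrix genes 5 were measured and 5 stood higher later, 0 of them at an unadjusted p under 0.05. The matrix and stromal genes FN1 and LGALS1 had means of -0.13 and -0.19 early and of -0.10 and -0.18 later. None of the endothelial, macrophage and leukocyte, or adipocyte genes listed had a named probe. Host cells in these xenografts are mouse, whereas the tumor cells and the gene symbols are human. How far the probes read mouse RNA was not tested, so these values do not measure the content of host cells. The part of other cells in the differences above was not tested.

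By single days, 0 probes passed the adjustment in any of the 6 contrasts between days. At an unadjusted p under 0.05, day 4 against day 1 had 885 probes (8.93%), day 4 against day 2 had 624 (6.3%), day 7 against day 1 had 509 (5.14%) and day 7 against day 2 had 604 (6.09%). Between days of the same group, day 2 against day 1 had 684 (6.9%) and day 7 against day 4 had 481 (4.85%). Of the 4 contrasts across the groups, day 4 against day 1 had more probes than both contrasts within them. The other counts across the groups lay between those within them. Day 2 had 2 tumors and days 1, 4 and 7 had 4 each. The contrasts therefore differ in power, and their counts are not on equal terms.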

How the data were processed

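RNA of 16 treated ZR-75-1 xenografts and of 1 control pool was hybridized to 32 cDNA arrays with 2 colors. The deposited scanner files hold intensity values of each spot and of its local background per channel, as scanned by the authors and not yet normalized, per the file headers. The deposited table of log2 values holds the authors' ratios per array, made in limma, with no version stated in the methods, by correcting the background and by loess and quantile normalization. It holds 9928 probes and the scanner files 9912, with 9908 shared and 665 values missing. The table's columns correlated with the scanner ratios at 0.216 to 0.994, all in the direction used here; its scale and centring per probe are not stated. Treated over pool was taken as channel 2 over channel 1 for forward arrays and as the inverse for dye swaps.

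The scanner values were processed in limma 3.58.1 (R 4.3.3, statmod 1.5.0). Between 1 and 393 spots per array had the mark 0 and were dropped, after which normexp with an offset of 50, loess and quantile normalization were applied. Ratios were averaged per tumor. The fit had 1 mean for days 1 and 2 and 1 for days 4 and 7, the mouse as a random block (estimated correlation 0.0846), eBayes and Benjamini-Hochberg adjustment over 9912 probes at 0.05, and all p values are from limma. The number of tumors limits the precision, and the pool is 1 sample. The p values assume that tumors vary alike at early and later days. The fit was tested on simulated data.

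Symbols and the 6 sets come from the study's list of 333 probes (253 symbols, 252 genes after 4 probes with several symbols were left out), and the brightest probe stands for a gene. In RefSeq, 217 symbols were found as given and 34 as synonyms. The remaining probes are unnamed here. Genes were named by the 10 smallest p values in each direction, the 4 largest early calls in each direction, up to 4 members of each of 16 gene lists, and those the study followed up. The genes GMNN, MCM6, ZWINT, DLG7, FOXM1, CCNA2, MKI67, NUMA1, CITED1, TFF1, CLN8, PRODH, TFPI2, UNG2, COX6C and the markers MUC1, ERBB3 and LGALS1 were added after their values were seen. The comparison, its samples and the lists were chosen with earlier results of these data known. The replicate numbers did not pair the tumors. Alternatives covered background, normalization, marks, dim probes, the dye term, the mouse, tumor weights, the authors' table, the left-out array, single days and leaving out each tumor.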

Additional observations from a re-analysis of the deposited data

Results flagged for a closer look

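Among 78 genes named, 12 of 156 groups of tumors (7.69%) held 1 tumor far from the others, where chance alone gives about 1 in 20. The tumor of day 4 replicate 2 stood above the other later tumors for SF1 (1.46), FTL (1.40), NUMA1 (1.22), ERBB2 (1.15) and ETV6 (1.05). The next highest later tumors stood at 0.33, 0.44, 0.38, 0.53 and 0.44. It is the tumor whose forward array the left-out array followed. Day 7 replicate 2 stood apart for IGFBP5 (3.41, next 1.40), CLN8 (-2.78, next -1.51) and B4GALT1 (-0.93, next -0.67). For GPI, a glycolytic enzyme, day 4 replicate 1 stood at -0.39, with the next lowest at 0.20. Among the early tumors, day 2 replicate 1 stood at -0.12 for MCM2 and at -0.0079 for AKAP13, where the nearest others were at -0.50 and 0.75, and day 1 replicate 4 stood at 0.16 for SERHL, with the nearest at 0.76.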

How the results depend on the processing

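For the difference between later and early tumors, 0 probes were called except in 3 settings. These were 1 probe in the array-level fit with a dye term, 1 with tumor weights and 13 with an unadjusted p of at most 0.05 and at least 1.5-fold. The probe called with the dye term and the probe called with tumor weights were also called against the pool at the early days. The array-level fit had the tumor and not the mouse as its block. The count at an unadjusted p under 0.05 was 1047 with tumor weights and 491 to 816 when 1 tumor was left out. Probes called against the pool at the early days numbered 1480 with the dye term, 1788 with tumor weights, 447 with 1 mean per mouse, 608 and 49 with day 1 or day 2 alone, 642 with day 4 alone, and 564 to 1107 without 1 tumor, with 590, 564, 602 and 590 without day 1 replicate 1, 2 or 3 or day 2 replicate 2. Those called at the later days numbered 242 with 1 mean per mouse, 113 with the left-out array used, 265 with day 2 alone, 37 and 50 with day 4 or day 7 alone, and 239 to 509 without 1 tumor, with 239 and 265 without day 7 replicate 2 or 3. The share of early-called probes nearer to the pool was 96.8% in the authors' table, 97.7% with the left-out array used, 96.1% and 100% with day 1 or day 2 alone, 89.7% and 90.8% with day 4 or day 7 alone, and 92% to 94.9% without 1 tumor. With day 2 alone the median difference was 0.48 for set 1 and 0.12 for set 2. Between 38 and 40 of the 40 probes of set 1 stood higher later in the 35 settings. The cause of these shifts was not tested.

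With the replicate number as a block, 358 probes were called early, 257 later and 0 in the difference, and 90.8% of the early-called were nearer later. Deviations of same-numbered tumors correlated at -0.175 to 0.167, so that the numbers do not pair them.

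Of 2728 gene values, 2649 kept direction and side of the threshold, 78 turned direction, all without a call, and 59 of 78 genes never turned. TFF1 had no value in the authors' table. With day 2 alone, SERPINA6 (0.047), PDZK1 (-0.014), IER3 (-0.10), STC1 (-0.11), FOS (0.27), RHOB (-0.14), SCARB1 (0.028), PERP (-0.033), CLU (-0.12), IGFBP5 (-0.11), TFF3 (0.19) and CITED1 (-0.0036) turned. With day 1 alone, S100A10 (-0.21), MAT1A (-0.00011) and LGALS1 (-0.13) turned. With day 4 alone, ALB (0.16), STC1 (-0.030), HBG1 (-0.16) and S100A10 (-0.011) turned. With day 7 alone, IER3 (-0.00097), FN1 (-0.14) and LGALS1 (-0.053) turned. With the left-out array used, ALB (0.16), SERPINA6 (0.12) and STC1 (-0.16) turned. In the authors' table, ALB (0.11), SERPINA6 (0.16), IER3 (-0.10) and STC1 (-0.056) turned. With tumor weights ALB (0.011), STC1 (-0.014) and RHOB (-0.0066), with the dye term MAT1A (-0.011), with 1 mean per mouse STC1 (-0.041) and FN1 (-0.030), with 1 mean per day STC1 (-0.0143 over 5 days and -0.0149 over 4) and RHOB (-0.0016 and -0.0014), with the block LGALS1 (-0.0077), and with Aquantile or no normalization between arrays STC1 (-0.0023) turned.

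Without 1 tumor, the differences ranged from -0.47 to 0.22 for ALB, -0.058 to 0.082 for FN1, -0.069 to 0.079 for LGALS1, -0.061 to 0.20 for MAT1A, -0.0022 to 0.12 for RHOB, -0.12 to 0.15 for S100A10, -0.22 to 0.16 for SERPINA6 and -0.11 to 0.10 for STC1. Chosen after seeing the data were the authors' table without the forward array of day 7 replicate 4, where SERPINA6 (0.049), IER3 (-0.056), STC1 (-0.00092) and RHOB (-0.0074) turned, and the fit without day 4 replicate 3 and day 7 replicates 1 and 4, with 226 probes called later, 87.6% nearer, and IGFBP4 (-0.051), S100A10 (-0.16) and MAT1A (-0.22) turned.

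With 2 tumors of day 2 and 10 mice, differences between single days and between early and later tumors have little precision, and arrays of low signal over background limit it further.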
